A study of Mus musculus with 8 samples.

Results

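Mettl3 is not the only enzyme that places methyl groups on RNA. A set of 10 genes that write, assist or remove RNA methylation outside the Mettl3 complex was taken by name from the 56748 gene IDs of each library and followed through all 8 libraries, to ask whether any of them rose when Mettl3 was depleted. They are Mettl16, Mettl5, Mettl4, Pcif1, Zcchc4, Mettl1, Nsun2, Trmt112, Trmt61a and Alkbh1. By their known activities 8 of the 10 are methyltransferases, whereas Trmt112 is a cofactor that several methyltransferases need and Alkbh1 is a dioxygenase that removes methyl groups. All 10 had enough counts to be tested, with 88 to 5450 counts per gene and library.

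The cells were bone marrow-derived mast cells (BMMCs), grown with IL-3 for several weeks from the whole bone marrow of young adult C57BL/6 mice and harvested resting, and poly-A RNA was sequenced. The Mettl3-RNP group (4 libraries, genotype given as Mettl3 KO) had been electroporated with Cas9 ribonucleoproteins (RNPs) carrying guide RNAs against Mettl3. The Pulsed group (4 libraries) was mock transfected, so that it had received the pulse but no Cas9 and no guide. Each Mettl3-RNP library came from a bulk, transfected culture and not from a clone, and the study took RNA only after Mettl3 protein had been checked as depleted, so edited and unedited cells were sequenced together. The cells came from 4 mice in all, and both groups carry replicate numbers 1 to 4.

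RNA methyltransferases take the methyl group from S-adenosylmethionine (SAM) and differ in the RNA and the atom that they modify. Mettl3, with Mettl14 and Wtap, makes N6-methyladenosine (m6A) in mRNA. Mettl16 makes m6A in the spliceosomal U6 RNA and in hairpins of the Mat2a mRNA, which encodes the SAM synthetase. Mettl5, held by Trmt112, and Zcchc4 each make m6A in ribosomal RNA, in the small and in the large subunit respectively. Mettl4 methylates an adenosine of the spliceosomal U2 RNA that already carries a ribose methyl group, and Pcif1 does the same to an adenosine next to the mRNA cap. Mettl1 with Wdr4 makes 7-methylguanosine, Nsun2 makes 5-methylcytosine and Trmt61a with Trmt6 makes 1-methyladenosine, all mainly in tRNA, and Alkbh1 removes 1-methyladenosine from tRNA.

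Mettl16 recognises an unusually defined sequence, and its sites are shown because they link a gene of the set to a transcript measured in the same libraries. The motif TACAGAGAA (written as DNA, searched on the transcribed strand only) occurred 5 times in the 1497 bases of the Mat2a 3′ UTR, in exon 9 of 9, on the minus strand of chromosome 6 (GRCm39). It is printed in capitals with 10 bases on each side, in the order of the transcript.
Mat2a, chr6:72411218-72411246: tggcgtaggtTACAGAGAAgccttcaagc
Mat2a, chr6:72410434-72410462: ccttgtgataTACAGAGAAgtcacagggc
Mat2a, chr6:72410255-72410283: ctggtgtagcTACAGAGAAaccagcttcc
Mat2a, chr6:72410140-72410168: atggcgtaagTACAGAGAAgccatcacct
Mat2a, chr6:72409921-72409949: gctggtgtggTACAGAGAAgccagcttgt
Of 20694 canonical 3′ UTRs, 627 (3.03%) held at least 1 copy, as did 2.68% of the 4633 with 1000 to 2000 bases, and Mat2a was the 1 with at least 5 copies. Only exact matches to these 9 letters were counted, so sites that differ from them are not in these numbers. A match is a description of the letters and not evidence of methylation in these cells.

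The guides that the study designed against coding exons of Mettl3 are shown because they define the perturbation, with the PAM in capitals. The gene occupies 52531551 to 52542608 of chromosome 14, minus strand. Coordinates cover the 20 bases before the PAM. Which of the designed guides were in the RNPs of these libraries is not stated.
crRNA_Mettl3_1, chr14:52537803-52537822, plus strand, exon 2 of 11: cacgggactatcactacggaAGG
crRNA_Mettl3_2-HDR, chr14:52542420-52542439, minus strand, exon 1 of 11: ggacacgtggagctctatccAGG
Within the gene spans of the 10 genes, no site with an NGG PAM came closer to either guide than 5 mismatches, a distance reached in Trmt61a.

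Total counts were 32643260 to 41351831 in Mettl3-RNP and 33942160 to 45324826 in Pulsed libraries. The targeted transcript was measured first. Mettl3 stood at 12.3, 9.18, 4.88 and 9.21 CPM (counts per 1000000, with library sizes scaled by TMM) in Mettl3-RNP 1 to 4 and at 25.9, 24.5, 11.2 and 26.5 CPM in Pulsed 1 to 4. It was lower in 4 of 4 pairs and fell by 1.31 on the log2 scale (SE 0.11, adjusted p 0.00277 by edgeR), although the groups overlapped, with Pulsed 3 below Mettl3-RNP 1. In the fit without the replicate block it stood at -1.30 with an adjusted p of 0.692 by edgeR. Of the 6765 exon bases of Mettl3, 2308 lie opposite Tox4. How strand was treated in the counting is not stated, so its counts may include reads of the other strand. Of 10 mast cell markers, all tested, 0 passed in edgeR, 2 had an unadjusted p under 0.05, DESeq2 called 2 and limma-voom 1, with a summed level of 38460 to 54191 CPM in Mettl3-RNP and 43410 to 61100 CPM in Pulsed. Of the 7 neutrophil markers 0 had enough counts to be tested, and S100a8, S100a9, Elane and Camp had 0 counts in all libraries. The summed neutrophil levels were at most 0.268 CPM in Mettl3-RNP and 0.373 CPM in Pulsed libraries. Of the 7 T and B cell markers 1 was tested and 0 passed in edgeR, with sums of 0.798 to 1.56 CPM against 0.164 to 2.62 CPM. Of the 7 macrophage markers 3 could be tested. Adgre1 was lower, while Cd68 had a log2 fold change of 1.71 (unadjusted p 0.00806 and adjusted p 0.0844 by edgeR), at 3.71, 23.8, 11.1 and 28.3 CPM in Mettl3-RNP 1 to 4 against 3.16 to 6.56 CPM in Pulsed libraries, and the summed levels were 7.37 to 35.9 CPM against 9.42 to 15.2 CPM. Of the 6 basophil markers 5 were tested, Il18rap and Ifitm1 were lower (3 calls by DESeq2, 2 by limma-voom), and Cd200r3 was at 0.25 (unadjusted p 0.0233 and adjusted p 0.140 by edgeR, higher in 4 of 4 pairs), with sums of 1795 to 2420 CPM against 2244 to 3322 CPM. The 7 erythroid markers included 1 that was lower, Car2 (2 calls by DESeq2, 1 by limma-voom), with sums of 9.23 to 14.8 CPM against 15.7 to 29.1 CPM. The part of these shifts in the values below was not tested, and in bulk RNA fewer cells of a type and less RNA per cell cannot be told apart.

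None of the 10 genes passed the test as higher or lower. At an adjusted p of 0.05 (edgeR, replicate number as block, adjusted over 14942 genes), 0 of 10 passed in either direction, against 4.96% of all tested genes, 3.06% higher and 1.9% lower in Mettl3-RNP cells. None therefore reached that level with a fold change of 1.5 or more, as 2.61% of tested genes did. DESeq2 and limma-voom also called 0 of 10. At an unadjusted p under 0.05, 0 of the 10 were higher and 3 were lower (Mettl1, Nsun2 and Trmt112), against 12.3% and 11% of all genes and 23.4% in either direction. The same 3 were lower in 4 of 4 pairs, as were 16% of all genes, and 0 of 10 were higher in 4 of 4 pairs, as were 15.7% of all genes, which makes 31.7% in either direction. The fitted log2 fold change was above 0 for 4 of the genes and below 0 for 6, with a median of -0.08 beside 0.0020 over all genes, and within pairs 1 to 4 the medians were 0.06, -0.13, -0.13 and -0.14. The group ranges overlapped for all 10, whereas 3.23% of tested genes had ranges that did not overlap.

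A p that misses the threshold does not show an absence of change, and the 95% intervals give what these libraries allowed. The highest upper limit was that of Zcchc4, 1.30-fold, so that no increase above 1.30-fold lay inside the interval of any of the 10 genes. Over the alternatives with a replicate block and an interval, this highest limit was 1.30 to 1.42-fold, with 1.42-fold in the fit without replicate 4. Without the replicate block it was 2.18-fold. The lowest lower limit was that of Mettl1, 0.632-fold.

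**Figure D1:**
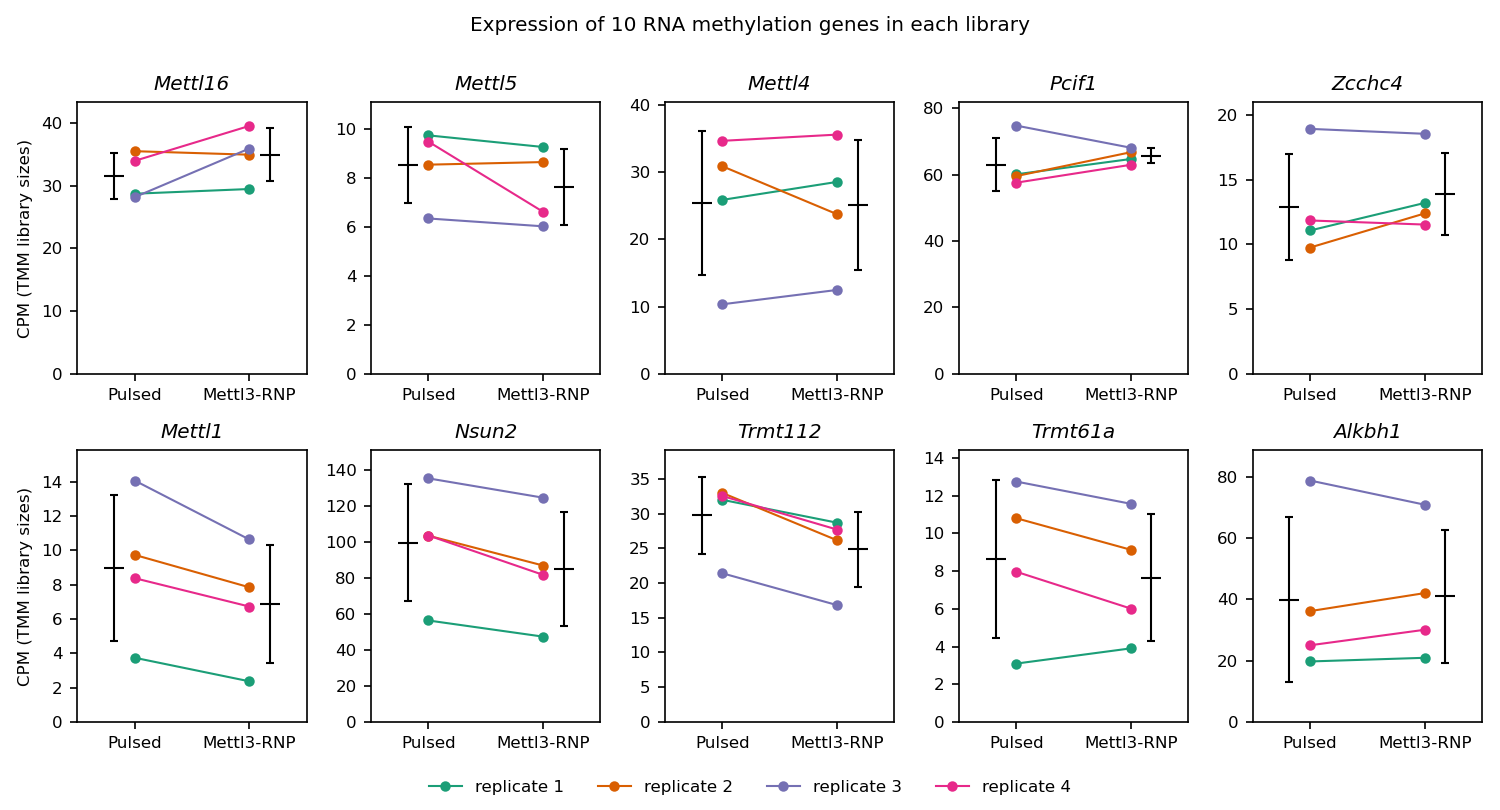
CPM (y axis, starting at 0) of each of the 10 genes in Pulsed and Mettl3-RNP libraries. A line joins libraries with the same replicate number, and black bars beside the points give the mean and SD of the 4 libraries. The lines of Mettl1, Nsun2 and Trmt112 run downwards in 4 of 4 pairs, no gene has 4 upward lines, and for most genes the replicates lie further apart than the ends of a line.

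Among the enzymes that make m6A in other RNAs, Mettl16 had the highest fitted value. It was found at 29.5, 34.9, 35.9 and 39.5 CPM in Mettl3-RNP 1 to 4 and at 28.7, 35.5, 28.2 and 34.0 CPM in Pulsed 1 to 4, with group means of 35.0 ± 4.16 and 31.6 ± 3.69 CPM (SD, n = 4). Pairs 3 and 4 were higher in Mettl3-RNP cells, by 0.35 and 0.22 on the log2 scale, while pairs 1 and 2 differed by 0.04 and -0.02. The fitted log2 value was 0.14 (SE 0.088, 95% interval -0.06 to 0.34, adjusted p 0.362 by edgeR). The gene, on chromosome 11 from 74661655 to 74719351 on the plus strand with 10 exons, overlaps no exon of another gene.

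Mettl5, the m6A enzyme of the small ribosomal subunit, was a low transcript. Levels were 9.26, 8.64, 6.02 and 6.61 CPM in Mettl3-RNP 1 to 4 and 9.73, 8.54, 6.34 and 9.48 CPM in Pulsed 1 to 4. Only pair 4 was far apart, with a log2 difference of -0.52, and the other 3 pairs lay between -0.07 and 0.02. The fitted log2 fold change was -0.16 (SE 0.129, 95% interval -0.45 to 0.14, adjusted p 0.508 by edgeR). Its exons (chromosome 2, 69701388 to 69716198, minus strand) share 974 bases with genes on the opposite strand, among them Ssb.

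Zcchc4, which acts on the large ribosomal subunit, was present at 13.2, 12.4, 18.6 and 11.5 CPM in Mettl3-RNP 1 to 4 and at 11.1, 9.77, 18.9 and 11.9 CPM in Pulsed 1 to 4. Pairs 1 and 2 were higher by 0.25 and 0.34 on the log2 scale, and pairs 3 and 4 differed by -0.03 and -0.04. Both libraries of replicate 3 stood above the other 6. This gave a log2 fold change of 0.13 (SE 0.107, 95% interval -0.12 to 0.37, adjusted p 0.521 by edgeR). The gene spans chromosome 5 from 52932751 to 52982012 on the plus strand and shares exon bases with no other gene.

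Of the 2 genes whose products methylate adenosines with a ribose methyl group, Mettl4 showed the smallest difference of the set. It was measured at 28.6, 23.8, 12.5 and 35.6 CPM in Mettl3-RNP 1 to 4 and at 25.9, 30.9, 10.3 and 34.7 CPM in Pulsed 1 to 4. Replicate 3 was low and replicate 4 high in both groups, and the group means were 25.1 ± 9.72 and 25.4 ± 10.7 CPM (SD, n = 4). The fitted log2 fold change was -0.00052 (SE 0.114, 95% interval -0.26 to 0.26, adjusted p 0.999 by edgeR), and its sign turned with the scaling and the filter. Of its exon bases (chromosome 17, 95030018 to 95057487, minus strand), 674 lie opposite 2700099C18Rik. An annotated pseudogene, Mettl4-ps1, had at most 31 counts in a library.

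Pcif1, the cap-adjacent enzyme, was among the more even transcripts. Its levels were 64.7, 66.7, 68.1 and 62.9 CPM in Mettl3-RNP 1 to 4 and 60.1, 59.5, 74.7 and 57.5 CPM in Pulsed 1 to 4. Pairs 1, 2 and 4 were higher by 0.11, 0.16 and 0.13 on the log2 scale and pair 3 was lower, at -0.13, because Pulsed 3 stood above the other libraries. Pcif1 had a log2 fold change of 0.07 (SE 0.076, 95% interval -0.11 to 0.24, adjusted p 0.647 by edgeR). Of its 8026 exon bases (chromosome 2, 164721224 to 164736374, plus strand), 6466 lie opposite exons of Zfp335 and Gm75548, and how strand was treated in the counting is not stated, so reads of the 2 strands may be mixed. Zfp335 itself had a log2 fold change of -0.07.

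The 3 tRNA methyltransferases and Trmt112 had fitted values below 0. Nsun2, the 5-methylcytosine enzyme, had the highest mean CPM of the set in both groups, although Pcif1 stood above it in both libraries of replicate 1. Levels of Nsun2 were 47.4, 87.0, 125 and 81.8 CPM in Mettl3-RNP 1 to 4 and 56.4, 104, 135 and 104 CPM in Pulsed 1 to 4. Every Mettl3-RNP library lay below the Pulsed library of its number, with log2 differences of -0.25, -0.25, -0.12 and -0.34. In the fit this came to -0.24 (SE 0.069, 95% interval -0.40 to -0.08, or 0.759 to 0.944-fold), with an unadjusted p of 0.00766 and an adjusted p of 0.0823 by edgeR. Flipping the signs of the pairs in an exact permutation test (two-sided) gave p = 0.125 for Nsun2, Mettl1 and Trmt112 alike, which is the smallest that 4 pairs allow. Tent4a, 1 of 3 genes with exons opposite those of Nsun2 (chromosome 13, 69681865 to 69784299, plus strand) over 2082 bases in all, also had a negative value, -0.29.

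Mettl1, the 7-methylguanosine enzyme, was at 2.37, 7.85, 10.6 and 6.73 CPM in Mettl3-RNP 1 to 4 and at 3.74, 9.74, 14.1 and 8.38 CPM in Pulsed 1 to 4. All 4 pairs were lower, with the widest gap in pair 1 (-0.65), where the transcript was scarcest, and -0.31 to -0.40 in the others. The log2 fold change of -0.39 was the most negative of the set (SE 0.118, 95% interval -0.66 to -0.12, unadjusted p 0.00986 and adjusted p 0.0938 by edgeR). The gene lies on chromosome 10 from 126877283 to 126883367 on the plus strand, and 100 of its exon bases lie opposite Eef1akmt3, which had at most 12 counts in a library.

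Trmt112, the shared cofactor, stood at 28.7, 26.2, 16.8 and 27.7 CPM in Mettl3-RNP 1 to 4 and at 32.0, 32.98, 21.4 and 32.5 CPM in Pulsed 1 to 4. Each pair was lower, at -0.16, -0.33, -0.35 and -0.23 on the log2 scale, and replicate 3 was the lowest of both groups. The fitted log2 fold change was -0.27 (SE 0.079, 95% interval -0.45 to -0.08, unadjusted p 0.00938 and adjusted p 0.0910 by edgeR). Of its 3842 exon bases (chromosome 19, 6885799 to 6890848, plus strand), 2211 lie opposite Prdx5 and Esrra, which had log2 fold changes of -0.20 and -0.03. The pseudogenes Trmt112-ps1 and Trmt112-ps2 had at most 4 counts in a library.

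Trmt61a, the catalytic subunit for 1-methyladenosine, did not keep 1 direction. It was at 3.90, 9.13, 11.6 and 6.01 CPM in Mettl3-RNP 1 to 4 and at 3.09, 10.8, 12.8 and 7.97 CPM in Pulsed 1 to 4. Pair 1 was higher by 0.33 on the log2 scale and pairs 2 to 4 were at -0.24, -0.14 and -0.40. Its log2 fold change was -0.16 (SE 0.136, 95% interval -0.47 to 0.15, adjusted p 0.527 by edgeR). The gene spans 111636987 to 111669107 of chromosome 12 on the plus strand, with 231 exon bases opposite Ckb, which had a log2 fold change of -0.44 that did not pass the test.

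Alkbh1, the dioxygenase that takes 1-methyladenosine off tRNA, was at 20.9, 42.1, 70.9 and 30.1 CPM in Mettl3-RNP 1 to 4 and at 19.7, 36.2, 78.8 and 25.0 CPM in Pulsed 1 to 4. Pairs 1, 2 and 4 were at 0.08, 0.22 and 0.26 on the log2 scale and pair 3 at -0.15. The log2 fold change was 0.10 (SE 0.091, 95% interval -0.11 to 0.30, adjusted p 0.564 by edgeR). The gene spans 87470130 to 87490787 of chromosome 12 on the minus strand, with 216 exon bases opposite Slirp. In both groups replicates 1 and 3 lay further apart than the libraries of any pair.

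**Figure D2:**
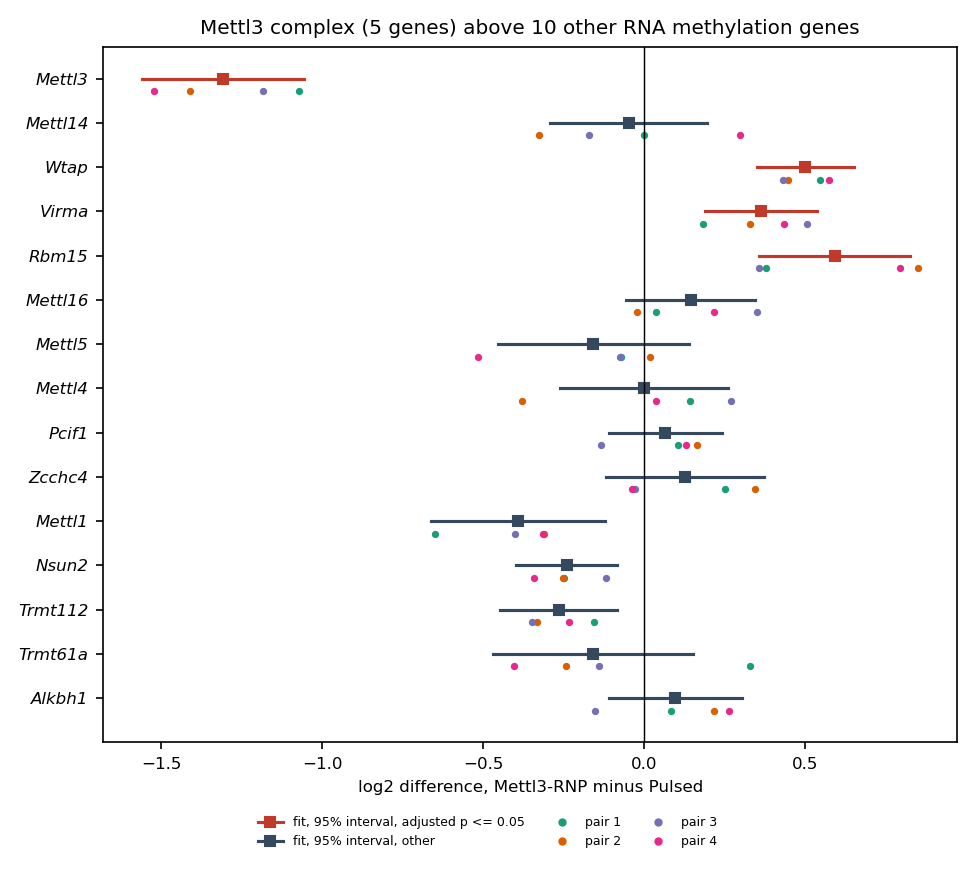
Log2 difference of Mettl3-RNP minus Pulsed (x axis) for 5 genes of the Mettl3 complex and below them the 10 other RNA methylation genes. Squares are the edgeR fit with its 95% interval, red where the gene passed the test, and small points are the 4 single pairs. Mettl3 lies at -1.31, Wtap, Virma and Rbm15 lie at 0.50, 0.36 and 0.59, and the 10 other genes lie between -0.39 and 0.14 with none in red.

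To set the levels of the genes beside each other, CPM was divided by the length of the canonical transcript in kb. Per kb, the mean level in Pulsed cells ran from 17.8 for Nsun2 through 10.9 for Pcif1, 10.4 for Alkbh1, 8.51 for Trmt112, 7.04 for Mettl5, 5.02 for Mettl1, 3.75 for Mettl4, 3.52 for Trmt61a and 2.51 for Mettl16 to 2.25 for Zcchc4. The ranges over the 4 Pulsed libraries overlapped for every pair of neighbours in this order. Within single libraries, Trmt112 was above Mettl5 per kb in 4 of 4 Pulsed libraries, and none of the other 8 pairs of neighbours kept its order in all 4. Alkbh1 was above Trmt112 in 1 of 4, Pulsed 3, and below it in the other 3, so their order by the mean rests on that library. Mettl1 was above Mettl4 in 2 of 4, and their order by the mean also rests on Pulsed 3. The order also depends on the transcript length used, since Mettl16 (12584 bases) moved from rank 9 to rank 6 and Mettl5 from rank 5 to rank 8 when CPM was divided by the length of all annotated exons.

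For each of the 10 genes, more of the variation in expression lay between replicate numbers than between the groups. There are 4 replicate numbers and 2 groups, so noise alone would on average also give replicate numbers the larger share. The 2 shares were not compared by a test. Of the variation of log2 CPM over the 8 libraries, 60.9% (Mettl16) to 98.1% (Alkbh1) lay between replicate numbers, and 0.0201% (Mettl4) to 19.3% (Mettl16) lay between the groups. The replicate with the highest mean level exceeded the lowest by 4.05-fold for Mettl1, 3.67-fold for Alkbh1, 3.46-fold for Trmt61a and 3.08-fold for Mettl4, but by 1.19-fold for Pcif1. Replicate 1 was the lowest and replicate 3 the highest in both groups for Mettl1, Nsun2, Trmt61a and Alkbh1. Replicate 3 was the lowest in both groups for Mettl4, Trmt112 and Mettl5. Across the 8 libraries, the 3 tRNA methyltransferases followed each other, with Pearson's r of 0.99 between Nsun2 and Mettl1, 0.94 between Nsun2 and Trmt61a and 0.93 between Mettl1 and Trmt61a. Alkbh1 followed each of the 3 as well (r = 0.82 to 0.86), whereas Zcchc4 and Mettl4 ran opposite (r = -0.91). These values are a description of 8 libraries that are not independent, since libraries of a number lie together. For the 3 tRNA methyltransferases and Alkbh1 the likeness describes levels between replicate numbers and did not carry over to the differences within pairs. Over the 4 pair differences, r was -0.17 between Nsun2 and Mettl1, 0.27 between Nsun2 and Trmt61a and -0.97 between Mettl1 and Trmt61a. Between Alkbh1 and each of the 3 it was -0.94 to 0.33, and between Zcchc4 and Mettl4 it was -0.69. In pair 1, Trmt61a was higher (0.33) and Mettl1 lower (-0.65) in Mettl3-RNP cells.

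**Figure D3:**
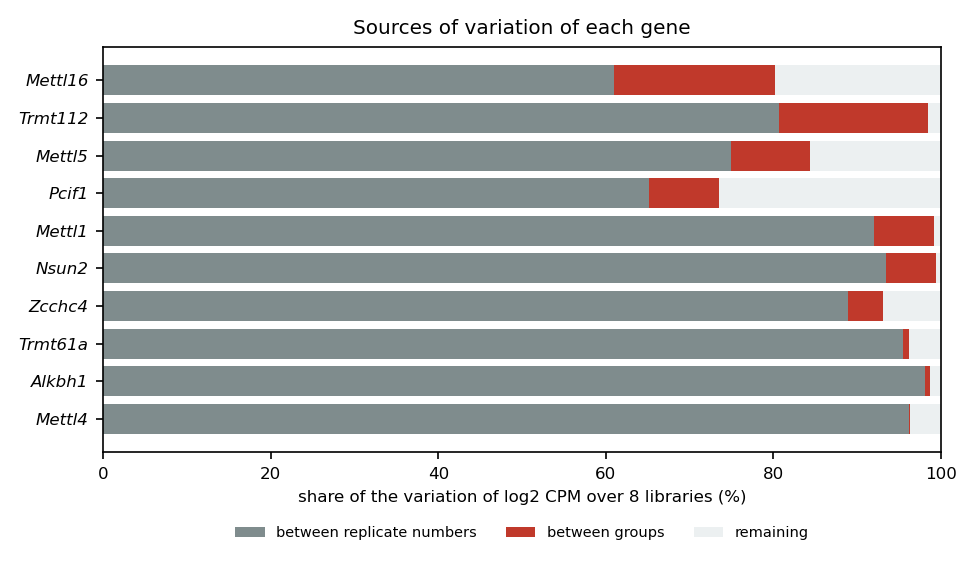
Share of the variation of log2 CPM over 8 libraries (x axis, %) that lay between replicate numbers (grey), between groups (red) and in neither (pale), for each of the 10 genes. The grey part runs from 60.9% to 98.1% and the red part is at most 19.3%. The grey part covers 4 replicate numbers and the red part 2 groups, so the 2 are not on an equal footing.

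Among 10737 protein-coding genes at 1 CPM or more on average, the profiles most like that of Mettl16 over the 8 libraries were those of Lamtor2 (Pearson's r = 0.984), Hspa13 (0.965) and Pgd (0.964). The profiles most like that of Pcif1 were those of Zfp445 (0.984), Trak1 (0.970) and Runx3 (0.969). These are the highest of many correlations over few libraries and are given as a description.

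The subunits and clients that work with these enzymes were looked up as a list of 8 genes. In edgeR 0 of 8 passed the test, beside 4.96% of all tested genes. At an unadjusted p under 0.05 (edgeR) there were also 0 of 8, beside 23.4% of all tested genes. DESeq2 and limma-voom called 0 of 8, and the median log2 fold change was -0.0043. Wdr4, the partner of Mettl1, was at 24.4 ± 11.8 CPM in Mettl3-RNP and 26.1 ± 13.1 CPM in Pulsed (SD, n = 4) with a log2 fold change of -0.09 (adjusted p 0.532 by edgeR). Trmt6, the partner of Trmt61a, had a log2 fold change of -0.14 (adjusted p 0.258 by edgeR) and was lower in 4 of 4 pairs, as were 16% of all genes. The clients of Trmt112 gave -0.05 for Bud23 (a methyltransferase of small subunit rRNA), 0.22 for N6amt1 (which methylates proteins), -0.06 for Trmt11, 0.10 for Thumpd2, 0.04 for Thumpd3 and 0.13 for Alkbh8. Of these, Alkbh8, which modifies the wobble position of tRNA, was higher in 4 of 4 pairs, as were 15.7% of all genes. The pairs differed by 0.01 to 0.26, with an adjusted p of 0.371 by edgeR. The widest intervals were those of Thumpd2 (-0.23 to 0.43) and N6amt1 (-0.08 to 0.53).

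Every methyltransferase of the set draws on SAM, so the genes that make, use and recycle it were examined as a list of 16. Of these, 1 was higher and 1 lower by the test, beside 3.06% and 1.9% of all tested genes, and at an unadjusted p under 0.05 there were 1 higher and 4 lower, beside 12.3% and 11%. Mat2a, the SAM synthetase whose 3′ UTR carries the 5 Mettl16 motifs shown above, was at 246, 269, 466 and 185 CPM in Mettl3-RNP 1 to 4 and at 304, 351, 541 and 242 CPM in Pulsed 1 to 4. All 4 pairs were lower, at -0.21 to -0.39 on the log2 scale, while the groups overlapped and replicate 3 was high in both. Mat2a fell by 0.32 on the log2 scale (SE 0.067, adjusted p 0.0357 by edgeR). Some of its exon bases lie opposite Ggcx and Particl. Adk, which removes the adenosine released when SAM has been used, rose by 0.34 (SE 0.071, adjusted p 0.0366 by edgeR), from 174 ± 32.3 CPM in Pulsed to 219 ± 37.0 CPM in Mettl3-RNP (SD, n = 4), and was higher in 4 of 4 pairs. Both calls were lost when single replicates were left out. Mat2a had adjusted p values of 0.108, 0.157 and 0.321 without replicates 1, 2 and 4 and kept its call without replicate 3 (0.0401), and Adk had 0.191, 0.0952, 0.0712 and 0.226 without replicates 1 to 4.

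The remaining 14 genes of SAM metabolism did not pass. Ahcy, which hydrolyses S-adenosylhomocysteine, the product that inhibits methyltransferases, came nearest at a log2 fold change of -0.37 (SE 0.098, adjusted p 0.0672 by edgeR). Its groups did not overlap, at 105 to 123 CPM in Mettl3-RNP and 131 to 170 CPM in Pulsed libraries, as was so for 3.23% of all tested genes. The folate enzymes Mthfd1 (-0.40) and Shmt1 (-0.50) were lower in 4 of 4 pairs, with adjusted p values of 0.0861 and 0.148 by edgeR. The others with a value given here were Mat2b at -0.16, Ahcyl1 at -0.10, Ahcyl2 at -0.32 (SE 0.486, about 1 CPM), Mtap at -0.09, Mtr at -0.04, Mtrr at -0.02, Mthfd2 at -0.15, Shmt2 at -0.18, and the methionine transporter chains Slc7a5 at -0.12 and Slc3a2 at 0.10. In all, 13 of the 16 fitted values were below 0 and the median was -0.13, beside 7405 of 14942 below 0 and a median of 0.0020 over all genes. No test compared the list with other genes.

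**Figure D4:**
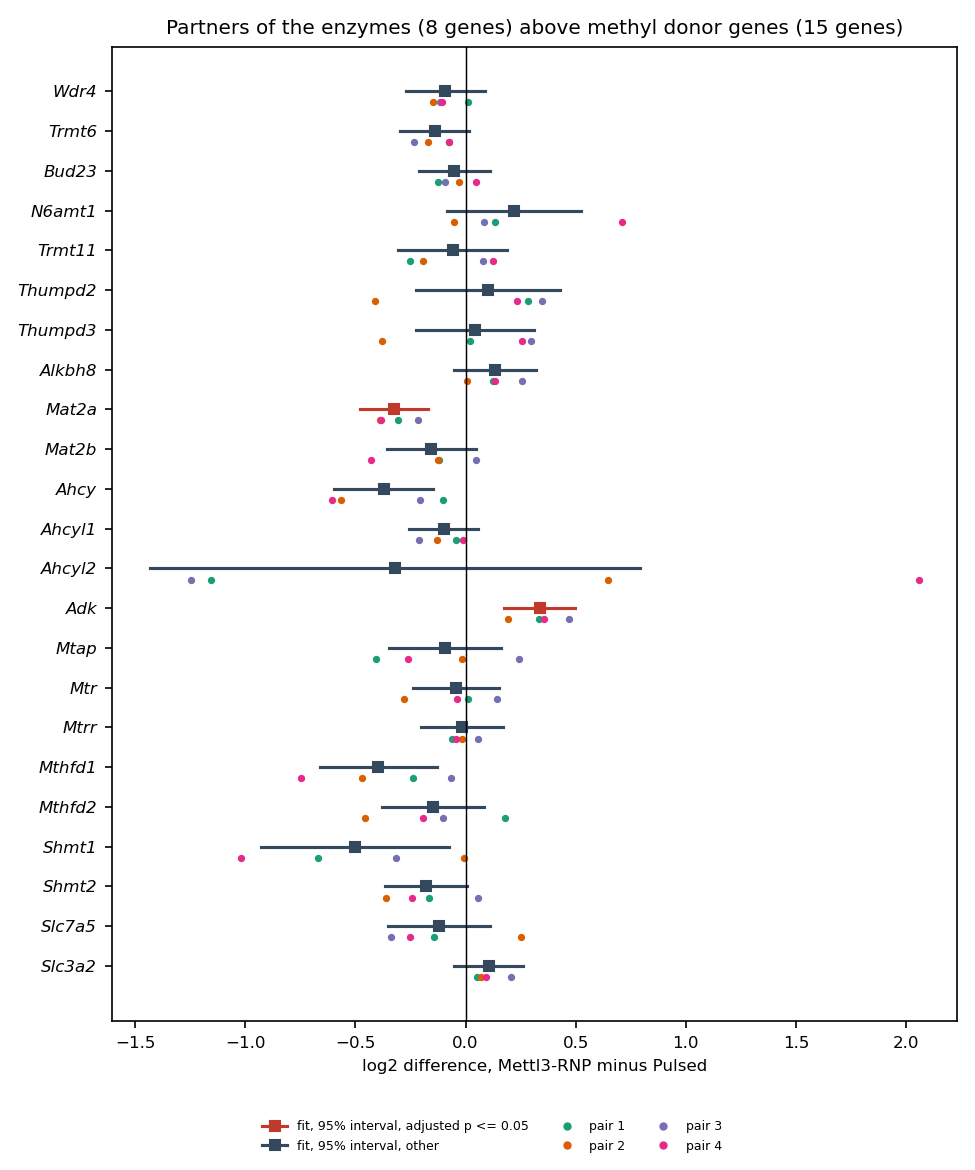
Log2 difference of Mettl3-RNP minus Pulsed (x axis) for 8 genes whose products work with the enzymes (top) and 15 of the 16 genes of SAM metabolism (below). Squares are the edgeR fit with its 95% interval, red where the gene passed the test, and small points are the 4 single pairs. Mat2a at -0.32 and Adk at 0.34 are the 2 in red, and for Ahcyl2 the single pairs spread from -1.24 to 2.06.

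RNA methylation genes beyond the set were counted in 4 further lists. Of their 52 genes 51 were tested and 2 passed, beside 4.96% of all tested genes, and the counts of 0 below stand beside the same share. None of the 8 cap methylation genes, the 14 tested rRNA methyltransferases or the 7 other AlkB-type dioxygenases passed in edgeR, with medians of -0.02, -0.03 and 0.03, and at an unadjusted p under 0.05 there were 2 higher and 1 lower, 0 and 2, and 1 and 1 genes, beside 12.3% higher and 11% lower of all genes. Of the 22 other tRNA methyltransferases 2 rose and 0 fell, beside 3.06% and 1.9% of all tested genes, with a median of 0.03. At an unadjusted p under 0.05, 7 of the 22 were higher and 1 was lower, beside 12.3% and 11% of all genes, and 7 were higher and 4 lower in 4 of 4 pairs, beside 15.7% and 16%. The list was not compared with other genes by a test. Both, Trmt12 and Lcmt2, act in the synthesis of wybutosine, a modified base beside the anticodon of phenylalanine tRNA. Trmt12 was at 15.02, 11.6, 6.79 and 15.1 CPM in Mettl3-RNP 1 to 4 and at 9.03, 7.36, 3.85 and 9.20 CPM in Pulsed 1 to 4. It was higher in 4 of 4 pairs, by 0.65 to 0.81 on the log2 scale, and the log2 fold change was 0.72 (SE 0.104, adjusted p 0.0130 by edgeR). Lcmt2 rose from 16.4, 15.9, 13.4 and 16.1 CPM in Pulsed 1 to 4 to 23.0, 25.2, 23.6 and 26.1 CPM in Mettl3-RNP 1 to 4, so that the groups did not overlap. Its log2 fold change was 0.67 (SE 0.090, adjusted p 0.0114 by edgeR). Without replicate 2 the adjusted p values were 0.0657 for Trmt12 and 0.0638 for Lcmt2, and both calls held without any of the other replicates. Trmt12 has exons opposite Gm62325 and Lcmt2 opposite Adal.

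In the complex of Mettl3 itself 4 of 8 genes passed (5 by DESeq2), beside 4.96% of all tested genes. Besides Mettl3, which fell, Wtap rose by 0.50 on the log2 scale (adjusted p 0.0107), Virma by 0.36 (adjusted p 0.0360) and Rbm15 by 0.59 (adjusted p 0.0221), all by edgeR and in 4 of 4 pairs, while Mettl14 was at -0.05 (adjusted p 0.824). Cbll1 at 0.36 (adjusted p 0.0777) and Zc3h13 at 0.24 (adjusted p 0.214, both by edgeR) did not pass but were higher in 4 of 4 pairs, and Rbm15b was at 0.11. In folds, Wtap was at 1.41 (95% interval 1.27 to 1.57), Virma at 1.29 (1.14 to 1.45) and Rbm15 at 1.51 (1.28 to 1.77). Whether the change of a complex gene differed from that of a gene of the set was not tested. Wtap had adjusted p values of 0.0540 and 0.0537 without replicates 2 and 4, Rbm15 0.0882 without replicate 2, and Virma 0.0694 to 0.192 without each replicate in turn.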

How the data were processed

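RNA-seq libraries of BMMCs were compared between the Mettl3-RNP and Pulsed groups (4 each). Per the labels and the study's methods, the authors aligned reads with HISAT2 2.2.1 to GRCm39 after FastQC 0.11.9 and obtained counts for Ensembl genes with featureCounts 2.0.1. The deposited values are whole-number counts with no normalization. Strand and multimapping settings are not stated, and a batch correction described by the study names no batch. GENCODE release M39 (GRCm39) named 98.7% of the 56748 IDs, and unnamed IDs held at most 0.113% of counts.

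Genes passing filterByExpr (minimum count 10), 14942 in all, were tested with the quasi-likelihood test of edgeR 4.0.16 in R 4.3.3 (glmQLFit with legacy = FALSE, glmQLFTest), with TMM library sizes and the replicate number as block. P-values were adjusted by Benjamini-Hochberg over all tested genes. Standard errors came from the test statistic, and 95% intervals from these and the degrees of freedom. A gene passed at an adjusted p of 0.05 or less. Log2 CPM used a prior count of 2. Lengths and exon counts are of the canonical transcript. DESeq2 1.42.0 and limma 3.58.1 were used in alternatives. The scripts were tested on simulated data.

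The pairing rests on the 4 mice of the series text and on same-numbered libraries deviating together from their group means (r = 0.825, 0.489, 0.879 and 0.765 over 11985 genes, at most 0.183 between different numbers). The link of a number to 1 mouse is inferred. Replicates differed by far more than sampling noise (chi-square per degree of freedom at least 52.6). Standard errors and intervals include both counting error, which weighs most on low genes, and the spread between pairs.

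The 10 genes and all lists were chosen with earlier results of these data known, so counts over them are not independent evidence. The text names the 10 genes, Mettl3, all tested partners and SAM genes, and of other lists those that passed, with Mettl14 and Wtap. The values of 1 SAM gene are not reported here, although it is included in the counts. Overlapping genes, pseudogenes and exon counts were looked up, and Cd68, Cd200r3, Cbll1, Zc3h13 and Rbm15b named, after values had been seen.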

Additional observations from a re-analysis of the deposited data

Results flagged for a closer look

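In 8 of the 82 groups of 4 values (41 named genes in each group), the highest or lowest library stood further from the rest than Dixon's 95% critical value for 4 samples allows. Chance flags about 1 in 20 groups, or 4.1 of these. Of the 8, 5 belong to replicate 3. Among the 10 genes, Pcif1 was high in Pulsed 3 (74.7 CPM) and Trmt112 was low in Pulsed 3 (21.4 CPM). Mettl3 was low in Pulsed 3 (11.2 CPM), Rbm15 was high in Mettl3-RNP 3 (129 CPM) and so was Wdr4 (41.9 CPM). In other replicates, Mthfd2 was high in Mettl3-RNP 4 (109 CPM), and Shmt1 (1.86 CPM) and Slc7a5 (49.9 CPM) were low in Mettl3-RNP 1. In each replicate 3 case the library of the same number in the other group stood on the same side of its group.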

How the results depend on the processing

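The count of the 10 genes that passed was 0 under all 12 alternatives, and their lowest adjusted p was 0.0584 (Nsun2, at least 10 counts in every library). The same held for 0 calls among partners. The pairing decided other counts. Without the replicate block, 0 genes passed, also at a fold change of at least 1.5 and in the lists of SAM metabolism, tRNA methyltransferases and the Mettl3 complex, 623 genes had an unadjusted p under 0.05, and Mettl3 was at -1.30. In place of 741 genes, DESeq2 called 1449, limma-voom 642 and edgeR with the legacy estimate of the spread 559. Keeping every gene of at least 1 count gave 543, and at least 10 counts in every library gave 1040. DESeq2 size factors gave 782 and library size alone 763. Leaving out 1 replicate gave 86 to 546 genes in place of 741, lowest without replicate 2, and 85 to 418 in place of 390 at a fold change of at least 1.5. It gave 0 to 1 SAM gene in place of 2, 0 to 3 tRNA methyltransferases in place of 2 and 1 to 3 genes of the Mettl3 complex in place of 4. With every gene of at least 1 count kept, which moved the median of all genes to 0.10, 0 SAM genes passed. Ahcy passed with DESeq2 and with at least 10 counts in every library. Signs turned for 7 of the named genes, among them Ahcyl2, at -0.32 in the fit as reported. Mettl4 was at 0.0052 with DESeq2 size factors, 0.031 with library size alone, 0.0039 with at least 1 count, 0.0073 with at least 10 counts in every library, 0.020 with DESeq2, 0.011 with the legacy estimate of the spread and -0.095 to 0.13 leaving out replicates. Mtrr was at 0.017 with library size alone and Ahcyl2 at 0.035 with DESeq2. Leaving out replicates gave -0.0095 to 0.28 for Thumpd2, -0.035 to 0.18 for Thumpd3, -0.66 to 0.16 for Ahcyl2, -0.10 to 0.030 for Mtr, -0.044 to 0.0033 for Mtrr and -0.16 to 0.037 for Mettl14. The cause of these changes was not tested.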

Other observations

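Trmt12 and Lcmt2, the tRNA methyltransferases that rose, each have 1 exon in their canonical transcript. The only other tested gene with 1 exon among the lists of RNA methylation and SAM genes was Rbm15b, a subunit of the Mettl3 complex, at a log2 fold change of 0.11 (SE 0.077, adjusted p 0.443 by edgeR, higher in 3 of 4 pairs). Of all 254 tested protein-coding genes with 1 exon, 8.27% passed the test as higher and 2.36% as lower, with a median log2 fold change of 0.09. Of the 11802 with more than 1 exon, 3.40% were higher and 2.09% lower, with a median of 0.0022. These shares are a description, and no test compared them.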
